A study of Mus musculus with 9 samples.

Results

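Cytosolic ribosomal proteins, the protein parts of the ribosomes that translate nuclear-encoded messages, were followed through RNA-seq of sorted mouse bone marrow cells labelled MEP, the usual short name for megakaryocyte-erythroid progenitors. Genes were taken from the count table by name, as every symbol that starts with Rpl, Rps, Rplp or Rpsp and a digit, or that is Rpsa, leaving out the Rps6k kinases and symbols that contain -ps. The rule found 89 of 17769 genes. They comprise 31 small subunit proteins, 43 large subunit proteins, 3 proteins of the P stalk, 10 paralogs or retrogenes and 2 matches that are not ribosomal proteins, namely Rps19bp1, a protein that binds Rps19, and Rpl7l1, an Rpl7-like protein. Of the 89, 86 had enough counts to be tested. The other 3 are the paralogs Rpl10l (0 to 2 counts a library), Rpl3l (0 to 28 counts) and Rpl39l (0 to 68 counts, the highest in WT 50).

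All 9 libraries came from mice of the strain C57BL/6N. The VF group carried SclCre and the V617F allele and was taken 12 weeks after tamoxifen. The E12 group carried SclCre and the Exon12 allele and was taken 6 weeks after tamoxifen. The WT group was taken 12 weeks after tamoxifen, and its labels name no Cre. Each group has 3 libraries, named here by the label numbers VF 1, 2 and 3, E12 1, 2 and 5 and WT 50, 51 and 52. Per the labels, JAK2 mutations were induced with 5 daily tamoxifen injections. SclCre is a Cre recombinase under Scl regulatory sequence, which is used to reach blood stem and progenitor cells, so the allele is switched on in more cells than the sorted ones. E12 differs from the other groups in both genotype and weeks, and these cannot be told apart in any comparison with E12. The labels do not say that the 3 libraries of a group are separate mice, so p-values measure the spread between these libraries, which may be technical. JAK2 V617F and JAK2 exon 12 mutations are known from human myeloproliferative neoplasms, and gene counts do not show either allele.

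A cytosolic ribosome has a small subunit, which reads the message, and a large subunit, which joins amino acids and carries the P stalk that recruits translation factors. Its proteins are made in near-equal numbers, and their messages start with a run of pyrimidines, the 5' terminal oligopyrimidine or TOP motif, through which mTORC1 and Larp1 set their translation. Red cell formation is sensitive to ribosome supply: mutations in single ribosomal protein genes cause Diamond-Blackfan anemia, a failure of red cell production.

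The start regions of 68 of the members could be read from RefSeq (GRCm38.p6). Printed here are 20 bases before and 30 after an annotated start of 6 members that hold a long pyrimidine run there. These examples, the motif and its length of at least 8 bases were chosen after the data had been seen. Capitals mark the run of C and T that begins with C and lies from 10 bases before to 40 after the start. In Rpl7a and Rpl11, C or T bases also stand directly before the capitals.
Rpl27a: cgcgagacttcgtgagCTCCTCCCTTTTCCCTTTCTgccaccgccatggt
Rpl35: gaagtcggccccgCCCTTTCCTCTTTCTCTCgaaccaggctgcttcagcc
Rpl15: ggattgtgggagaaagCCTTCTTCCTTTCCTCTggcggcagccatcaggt
Rpl7a: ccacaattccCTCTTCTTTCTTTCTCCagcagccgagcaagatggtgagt
Rpl11: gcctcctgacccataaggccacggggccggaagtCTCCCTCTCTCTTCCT
Rpl13a: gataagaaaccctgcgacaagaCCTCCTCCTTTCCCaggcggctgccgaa
They lie at chr7:109519175-109519224 on the plus strand, chr2:39005102-39005151 on the minus strand, chr14:18270957-18271006 (minus), chr2:26910787-26910836 (plus), chr4:136053364-136053413 (minus) and chr7:45128716-45128765 (minus). A run of at least 8 C or T bases that begins with C, lying from 10 bases before to 40 after the start on the sense strand, was present in 38 of the 68 member genes (55.9%). It was present in 15.6% of all genes with a start window and in 15.9% of tested genes that are not members. The letters CCGGAAG, searched on both strands over 250 bases before to 50 after the start, were found in 26 members (38.2%) and 9.9% of all genes (19.6% of the tested others). AAGATGGC was found in 6 members (8.8%) against 3.2% of all genes (5.1% of the tested others). TATAAA, in the 40 bases before the start, was found in 1 member (1.5%) against 2.8% of all genes (1.7% of the tested others). CCGGAAG ends in the letters with which AAGATGGC begins, so matches of both can overlap.

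The starts of 3 members in which the search found no run are shown because all 3 are matches of the name rule that are not classical subunits.
Rpl7l1: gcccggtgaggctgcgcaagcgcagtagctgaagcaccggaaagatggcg
Rps19bp1: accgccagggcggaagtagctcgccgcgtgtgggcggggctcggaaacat
Rps27l: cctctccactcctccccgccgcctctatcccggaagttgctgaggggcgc
They lie at chr17:46782627-46782676 (minus), chr15:80264277-80264326 (minus) and chr9:66946066-66946115 (plus). Each has no capitals because no such run was found from 10 before to 40 after the start; this says only that these letters are not in that window. In Rps27l a run of C and T bases begins just upstream of the searched stretch. Members with and without the run had similar medians of change. In VF against WT the median log2 fold change was -2.15 over 37 tested members with a run and -2.10 over 28 without; in E12 against WT the medians were -2.03 and -1.92.

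The libraries held 19256431 to 39736096 counts, with 33838681 or more in each WT library and 23499914 or fewer in each VF and E12 library. WT 50 stood apart. It had 23.9% of its counts in genes shorter than 1 kb that are not members, whereas WT 51 and WT 52 had 11.8% and 9.33% and the 6 mutant libraries 5.8% to 7.63%. E12 5 held 3.37% hemoglobin counts, against 0.00483% to 0.325% in the other libraries. Summed levels of lineage markers differed between the groups. The summed level of 12 erythroid markers was 1160 to 1770 CPM (counts scaled to library size with TMM factors) in VF, 8540 to 22400 in E12 and 22900 to 40000 in WT, and that of 10 megakaryocyte markers was 2070 to 2660, 368 to 466 and 57.1 to 175. Stem cell markers summed to 1350 to 1420 CPM in VF, 298 to 540 in E12 and 19.2 to 35.2 in WT, where Mecom, Procr and Tek were at 0. Neutrophil and monocyte markers summed to 6960 to 13000, 1600 to 2240 and 262 to 4390 CPM, B cell markers to 121 to 233, 27.4 to 590 and 314 to 3760 CPM, and mast cell markers to 294 to 357, 33.2 to 170 and 25.7 to 121 CPM. Itgb3, a defining marker of megakaryocytes, was at 0 in WT, at 116 to 157 CPM in VF and at 17.3 to 21.8 in E12. Gp6, another, and Ms4a1, of B cells, were at 0 in WT and at 0.261 CPM or less in the mutants, apart from Ms4a1 at 22.7 in E12 5. Single markers did not all follow the sum of their list. Car2 had the highest mean of the erythroid markers in each group (977 CPM in VF, 5320 in E12 and 15100 in WT). Of the 12, 11 lay below WT without overlap in VF. Compared with WT, the E12 group had 5 of them below without overlap and 2 above, Tfrc (mean 1210 against 118 CPM) and Slc4a1. Slc4a1 had 6.28, 3.69 and 431 CPM in E12 1, 2 and 5 and 1.71, 1.62 and 2.04 in WT. Its E12 mean of 147 thus rested on E12 5. S100a8 and S100a9, neutrophil markers, were highest in WT 50 (2980 and 662 CPM). The part of these markers in the results on ribosomal protein genes was not tested. In bulk samples, fewer cells of a type and less RNA per cell cannot be told apart.

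Ribosomal protein genes took about 2% of all counts in both mutant groups and more in WT. Their share was 2.26%, 2.22% and 1.97% in VF 1, 2 and 3, 2.08%, 1.90% and 2.16% in E12 1, 2 and 5, and 6.08%, 3.91% and 3.19% in WT 50, 51 and 52. Means were 2.15% ± 0.157 (SD, n = 3) in VF, 2.05% ± 0.133 in E12 and 4.39% ± 1.5 in WT. Every WT library lay above every mutant library, while VF and E12 overlapped. The share of the other genes under 1 kb was ordered the same way, from 7.09% to 7.63% in VF, 5.8% to 7.52% in E12 and 9.33% to 23.9% in WT. Within the counts of genes shorter than 2 kb the members held 6.17%, 6.19% and 5.68% in VF, 5.78%, 5.7% and 5.77% in E12 and 8.17%, 6.75% and 6.59% in WT, which kept WT above the mutants by a smaller margin (means 6.01%, 5.75% and 7.17%). Within the family, small subunit genes gave 41.7%, 39.7% and 42.7% of the members' counts in VF, E12 and WT, large subunit genes 48.1%, 49.2% and 47.1%, and P stalk genes 8.6%, 9.35% and 8.95%.

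**Figure D1:**
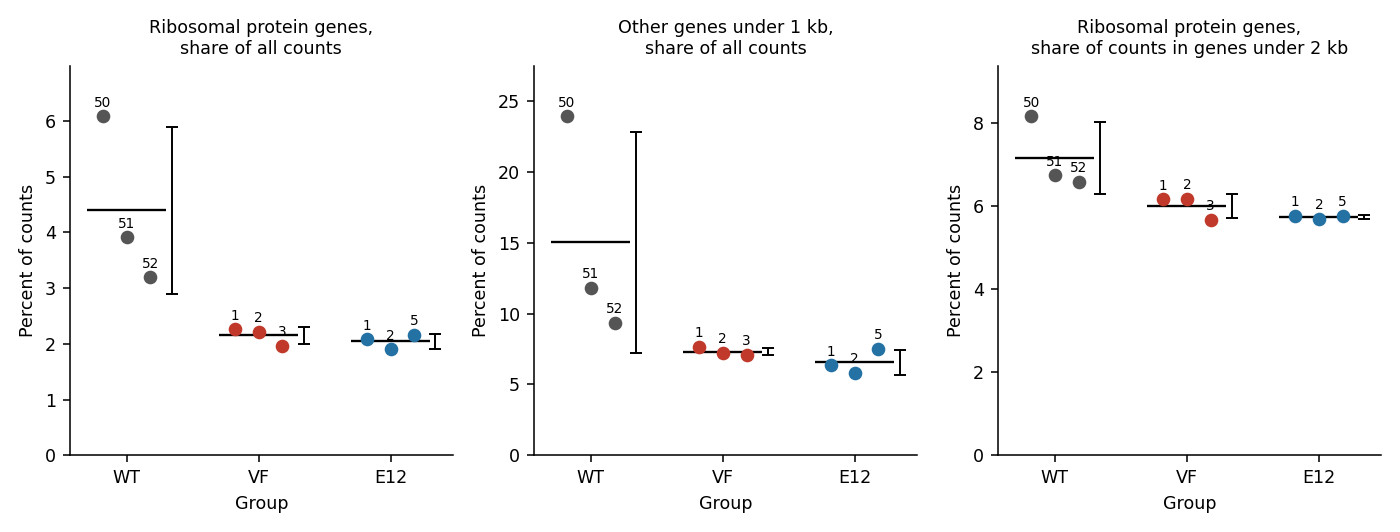
Share of each library's counts that fell on the 89 ribosomal protein genes, in percent of all counts (left) and in percent of the counts of genes under 2 kb (right), and share of all counts on the other genes under 1 kb (middle), with 1 point a library, the bar at the group mean and the whisker at 1 SD. The 3 WT points lie above all mutant points in every panel, and WT 50 is the highest at 6.08%, 23.9% and 8.17% from left to right.

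Levels differed widely between members and were ordered alike in the 3 groups. In CPM per kb of the deposited gene length, the mean over groups was among the highest for Rpl35 (2380), Rps14 and Rpl4 (both 2170) and Rplp0 (1990), and lowest for Rpl28 (3.15), Rpl21 (7.04), the paralog Rps4l (11.5) and Rps23 (16.5). The SD of log2 CPM per kb over the 86 members was 1.73 in VF, 1.70 in E12 and 1.84 in WT. Spearman correlations of the levels per kb between groups were 0.961 for VF and WT, 0.96 for E12 and WT and 0.978 for E12 and VF; the 86 points are genes that share each library's depth and the same annotated lengths. Many members have near-identical copies: 42 of the 89 share over 50% of the 50-base words of a GENCODE transcript with other genes, and how reads that match several genes were counted is not given in the sources used here. Levels of members with such copies, low or high, are therefore uncertain. Across the 86 tested members the level per kb and the share of words found in other genes had a Spearman correlation of -0.01. Rpl28, at 0.782 to 4.58 CPM, shared 47.4% of its words and Rpl35 95.1%.

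In VF against WT, ribosomal protein genes of both subunits were lower in VF. With edgeR's quasi-likelihood test on all 9 libraries and Benjamini-Hochberg adjustment over 13608 genes, 81 of the 86 tested members were lower and 0 were higher (adjusted p under 0.05; 20.9% of all tested genes were lower and 27.7% higher). The median log2 fold change was -2.11, from -2.90 to -0.95, against 0.36 over all tested genes. By role, 31 of 31 small subunit genes fell, 40 of 43 large subunit genes, 3 of 3 P stalk genes, 5 of 7 paralogs and both matches that are not ribosomal proteins. In 84 of 86 members no VF library reached any WT library (23.0% of all tested genes were separated in this direction and 39.7% in the other). WT 50 was the highest of all 9 libraries for 85 of the 86 members, at a median of 3.61 times the mean of WT 51 and WT 52; the exception was Rps2. Without WT 50 the fit called 82 of 87 members lower (27.1% of genes lower, 32.8% higher), with a median of -1.37.

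Rpl35, a large subunit protein near the exit of the peptide tunnel (chr2:39001581-39005131), had 370, 363 and 318 CPM in VF against 5410, 1370 and 1050 in WT. The groups did not overlap, and WT 50 was more than 3 times the other WT libraries. Its log2 fold change was among the largest of the family, -2.90 ± 0.60 (SE; edgeR adjusted p = 0.0046), next to that of Rpl23a, its neighbour at the exit, whose 39.5, 37.6 and 34.1 CPM in VF stood against 579, 141 and 109 in WT (-2.90 ± 0.59, edgeR adjusted p = 0.0042). For Rpl23a the value without WT 50 was -1.89. Rpl4, a large subunit protein of the tunnel wall (chr9:64173387-64178562), had 1770, 1760 and 1600 CPM in VF and 6880, 5370 and 4550 in WT. Its WT libraries lay closer together than those of Rpl35 and Rpl23a, and its change was -1.71 ± 0.30 (edgeR adjusted p = 0.0024).

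The P stalk recruits elongation factors to the ribosome. Rplp0, its base, had 1250, 1270 and 1110 CPM in VF against 10200, 3550 and 2740 in WT, a log2 fold change of -2.19 ± 0.50 (edgeR adjusted p = 0.0073). Its partners Rplp1 and Rplp2 fell by 2.02 and 2.18 on the log2 scale. The 3 stalk genes thus had changes near the family's median. Rplp1 lost its call without VF 3 (edgeR adjusted p = 0.055), and without WT 50 the values for Rplp1 and Rplp2 were -1.18 and -1.40.

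Rps2, a small subunit protein at the channel where the message enters (chr17:24718121-24721927), moved least. It had 171, 153 and 143 CPM in VF and 288, 285 and 331 in WT, and was the single member for which WT 50 was not the highest library. The groups did not overlap, and the log2 fold change was -0.95 ± 0.23 (edgeR adjusted p = 0.0094), which ended without VF 3 (adjusted p = 0.052). The median change of genes of similar length was -1.63. The 5 members that did not pass the test were Rpl28 (-1.55 ± 0.66, edgeR adjusted p = 0.08), Rps4l (-1.04, 0.071), Rpl36 (-1.5, 0.069), Rpl22l1 (-1.81, 0.052) and Rpl32 (-1.33, 0.051). Their values were all below 0, and a missed threshold does not show that they kept their level. All 5 passed without WT 51 (edgeR adjusted p from 0.026 to 0.039) and without WT 52 (from 0.0067 to 0.026), while without WT 50 Rpl36 was -0.41, Rpl22l1 -0.44 and Rpl28 -1.03. Rpl32, a large subunit protein, had 551, 540 and 470 CPM in VF and 2510, 823 and 609 in WT, so that WT 52 was close to VF 1; without WT 52 it was -1.98 (edgeR adjusted p = 0.0069), without WT 51 -1.86 (0.033) and without WT 50 -0.61 (0.039).

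Several members are linked to inherited or acquired anemia. Of 17 Diamond-Blackfan anemia genes among the members, 17 were lower in VF against WT (median -1.97) and 17 in E12 against WT (median -2.10), medians close to those of the whole family. Rps19, the gene most often mutated in that disease (chr7:24884592-24889811), had 386, 411 and 335 CPM in VF, 291, 225 and 250 in E12 and 2620, 787 and 558 in WT. The 3 groups did not overlap, and both mutant groups were lower than WT (VF -1.81 ± 0.53, edgeR adjusted p = 0.02; E12 -2.37 ± 0.54, adjusted p = 0.0091). Leaving out any 1 VF library ended the VF call (edgeR adjusted p = 0.064, 0.059 and 0.074 without VF 1, 2 and 3), and without WT 50 the values were -0.98 and -1.55. Rpl5 and Rpl11, which with 5S rRNA can bind Mdm2 and so link ribosome assembly to p53, had log2 fold changes of -1.62 and -2.31 in VF and -1.61 and -2.33 in E12, all past the test. For Rpl5 the E12 call ended without E12 1 (edgeR adjusted p = 0.055) or E12 2 (0.068). Rps14, whose loss marks a myelodysplastic syndrome with a chromosome deletion, had 597, 626 and 516 CPM in VF, 455, 369 and 453 in E12 and 5810, 1610 and 1240 in WT. Its changes against WT were -2.32 ± 0.56 in VF (edgeR adjusted p = 0.0087; -1.44 without WT 50) and -2.76 ± 0.57 in E12 (adjusted p = 0.0065).

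In E12 against WT the picture was close to that in VF, and both comparisons use the same WT libraries. Again 81 of 86 members were lower and 0 higher (edgeR, adjusted p under 0.05; 18.1% of all tested genes were lower and 23.9% higher), with a median log2 fold change of -1.95 against 0.36 over all tested genes. The lower genes were 30 of 31 small subunit genes, 40 of 43 large subunit genes, 3 of 3 of the P stalk, 6 of 7 paralogs and both matches that are not ribosomal proteins. In 83 members no E12 library reached any WT library (20.3% of all tested genes, and 33.0% in the other direction). The count rested on single libraries more than that of VF did: it was 50 without E12 1, 32 without E12 2 and 51 without E12 5, while without WT 50 it was 82 of 87 (24.0% of genes lower, 28.4% higher) with a median of -1.19. Shares of all genes are not given for the fits without an E12 library, so those counts show only how far the calls moved. A fit of the E12 and WT libraries alone called 42 members lower and 0 higher (10.5% and 12.7% of the genes it tested). The same fit without E12 5 called 0 genes of any kind (edgeR, 0.0% in each direction).

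Rpl35 fell most in E12, from 5410, 1370 and 1050 CPM in WT to 291, 222 and 269, a log2 fold change of -3.33 ± 0.61 (edgeR adjusted p = 0.0044). Rpl4 had 2060, 1780 and 1930 CPM (-1.54 ± 0.30, edgeR adjusted p = 0.0055). Both genes were separated from WT in every library. The 5 members that did not pass were Rpl28 (-1.19, edgeR adjusted p = 0.17), Rpl21 (-0.99, 0.054), Rpl22l1 (-1.80, 0.059), Rps2 (-0.31, 0.3) and Rpl39 (-1.44, 0.061). Without WT 52 all of these but Rps2 passed (edgeR adjusted p from 0.0067 to 0.046), and without WT 51 Rpl21, Rpl22l1 and Rpl39 did (from 0.031 to 0.038). Without WT 50 Rpl28 was -0.67, Rpl22l1 -0.43 and Rpl39 -0.52, and Rpl21 passed at -0.73 (adjusted p = 0.047). Rps2 had 265, 194 and 268 CPM in E12, all below its lowest WT library at 285, and without WT 50 its value was -0.47 (edgeR adjusted p = 0.044).

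Most ribosomal protein genes are short, and many other short genes were lower in the mutants too. In 4 length classes under 1500 bases, 31.2% to 55.8% of the other genes were lower in VF and 5.2% to 10.8% higher, and in E12 27.9% to 57.2% were lower and 3.76% to 7.56% higher. Beside each member were set the tested genes that are not members and whose deposited length was at most 25% longer or 20% shorter, a median of 542 genes a member and at least 34. In VF against WT these genes had a median log2 fold change of -1.86 and the members -2.11. The median of the differences between a member and its similar genes was -0.37, with 70 members below and 16 above. In E12 against WT the medians were -1.94 for genes of similar length and -1.95 for the members, the median difference was -0.16, and 57 members lay below and 29 above. Most of the distance between the ribosomal protein genes and the median of all genes was thus shared by other genes of their length. Of 2796 other genes between 448 and 1632 bases, a range chosen after the data had been seen to hold the middle of the members, 50.6% were lower in VF and 51.7% in E12.

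When the comparison genes also had to lie within a factor of 4 of the member's mean CPM (at least 11 genes a member, median 182), the sign of the difference turned. Their median was -2.38 in VF against WT and -2.25 in E12 against WT, the median difference was 0.14 and 0.16, and 55 and 51 of the 86 members lay above. The mean CPM was taken over all 9 libraries, so it holds the WT levels against which the change is measured. The choice of genes of a like level thus depends in part on the change itself. No order between members and such genes is drawn from it. With offsets that remove the trend of change with length from every library, the median of all genes moved from 0.36 to -0.19 in VF against WT and from 0.36 to -0.11 in E12 against WT, and the members had medians of -0.50 and -0.20. Then 52 members were lower and 1, Rpl32, higher in VF (28.5% and 18.4% of all genes), and 25 lower and 1, Rpl39, higher in E12 (19.0% and 13.5%). On the log2 levels that the authors deposited, limma called 47 members lower and 0 higher in VF (24.3% and 25.5% of all genes), and 61 lower and 0 higher in E12 (20.5% and 21.1%), with medians of -0.74 and -0.87. The calls of edgeR, edgeR with length offsets and limma on the deposited levels shared 36 members in VF against WT, among them Rpl35, Rpl23a, Rpl11, Rpl26 and Rps27l, and 19 in E12 against WT, among them Rpl35, Rps14 and Rps6. Rpl4 with length offsets was -0.97 in VF (edgeR adjusted p = 0.00044), while on the deposited levels it was -0.15 (limma adjusted p = 0.73).

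**Figure D2:**
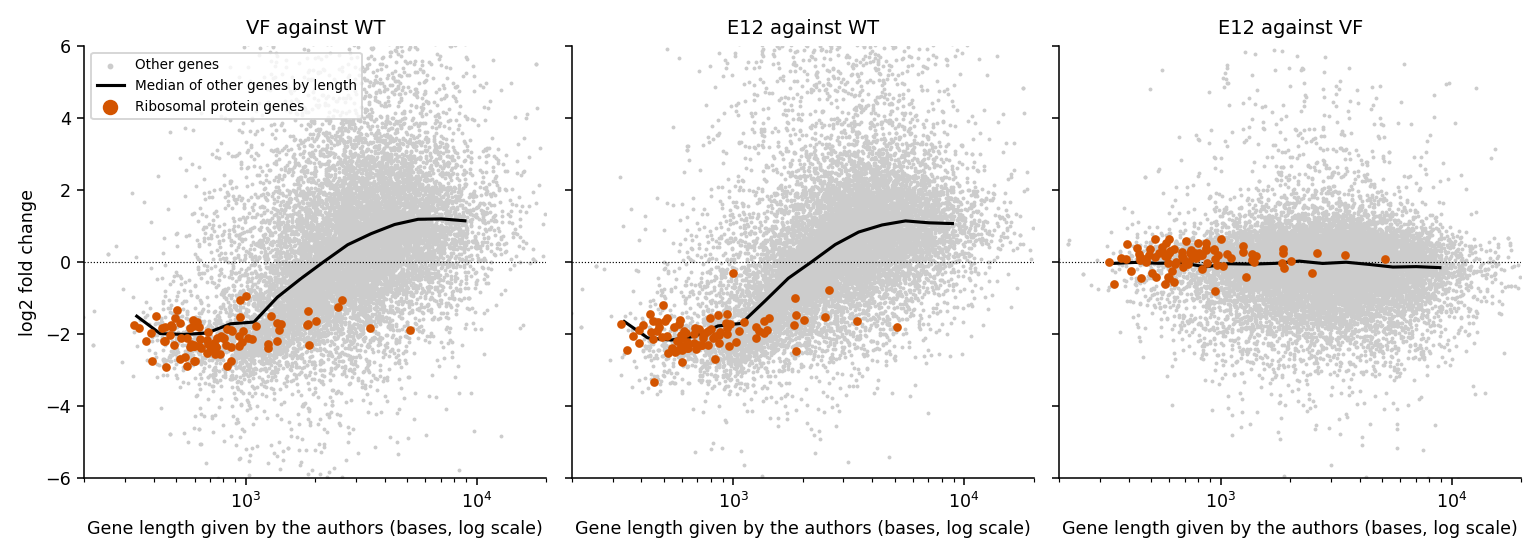
Log2 fold change of each tested gene against its deposited gene length in bases (log axis), with 1 panel for each of the 3 comparisons, with the members as coloured points, the other genes as grey points and a line at the median of the other genes by length. In both comparisons with WT the line lies below 0 for short genes and above 0 for long ones, with the members mostly along or under it, while in E12 against VF the line and the members stay near 0.

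Length bins show where members and other genes parted. Among genes of 500 to 750 bases, 32 members had a median of -2.31 in VF against WT and 346 other genes -1.98; in E12 against WT the medians were -2.15 and -2.11. Among genes of 1000 to 1500 bases the medians in VF were -2.0 for 10 members and -1.2 for 1429 other genes, and among those of 1500 to 3000 bases -1.62 for 7 members and 0.03 for 4705 others. The gap was widest for the 2 members of 3000 bases or more, Rps20 (3446 bases) and Rps15a (5134 bases), both small subunit proteins, which had -1.83 and -1.90 in VF (-1.15 and -1.10 without WT 50, and edgeR adjusted p = 0.051 and 0.056 without VF 3) while 6227 other genes of that size had a median of 1.01. Annotated lengths of these members are long for proteins of their size, and which of their transcripts the reads came from was not analysed here. Across the 86 members the Spearman correlation of the change with length was 0.19 in VF and 0.26 in E12, over genes that share the same libraries.

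**Figure D3:**
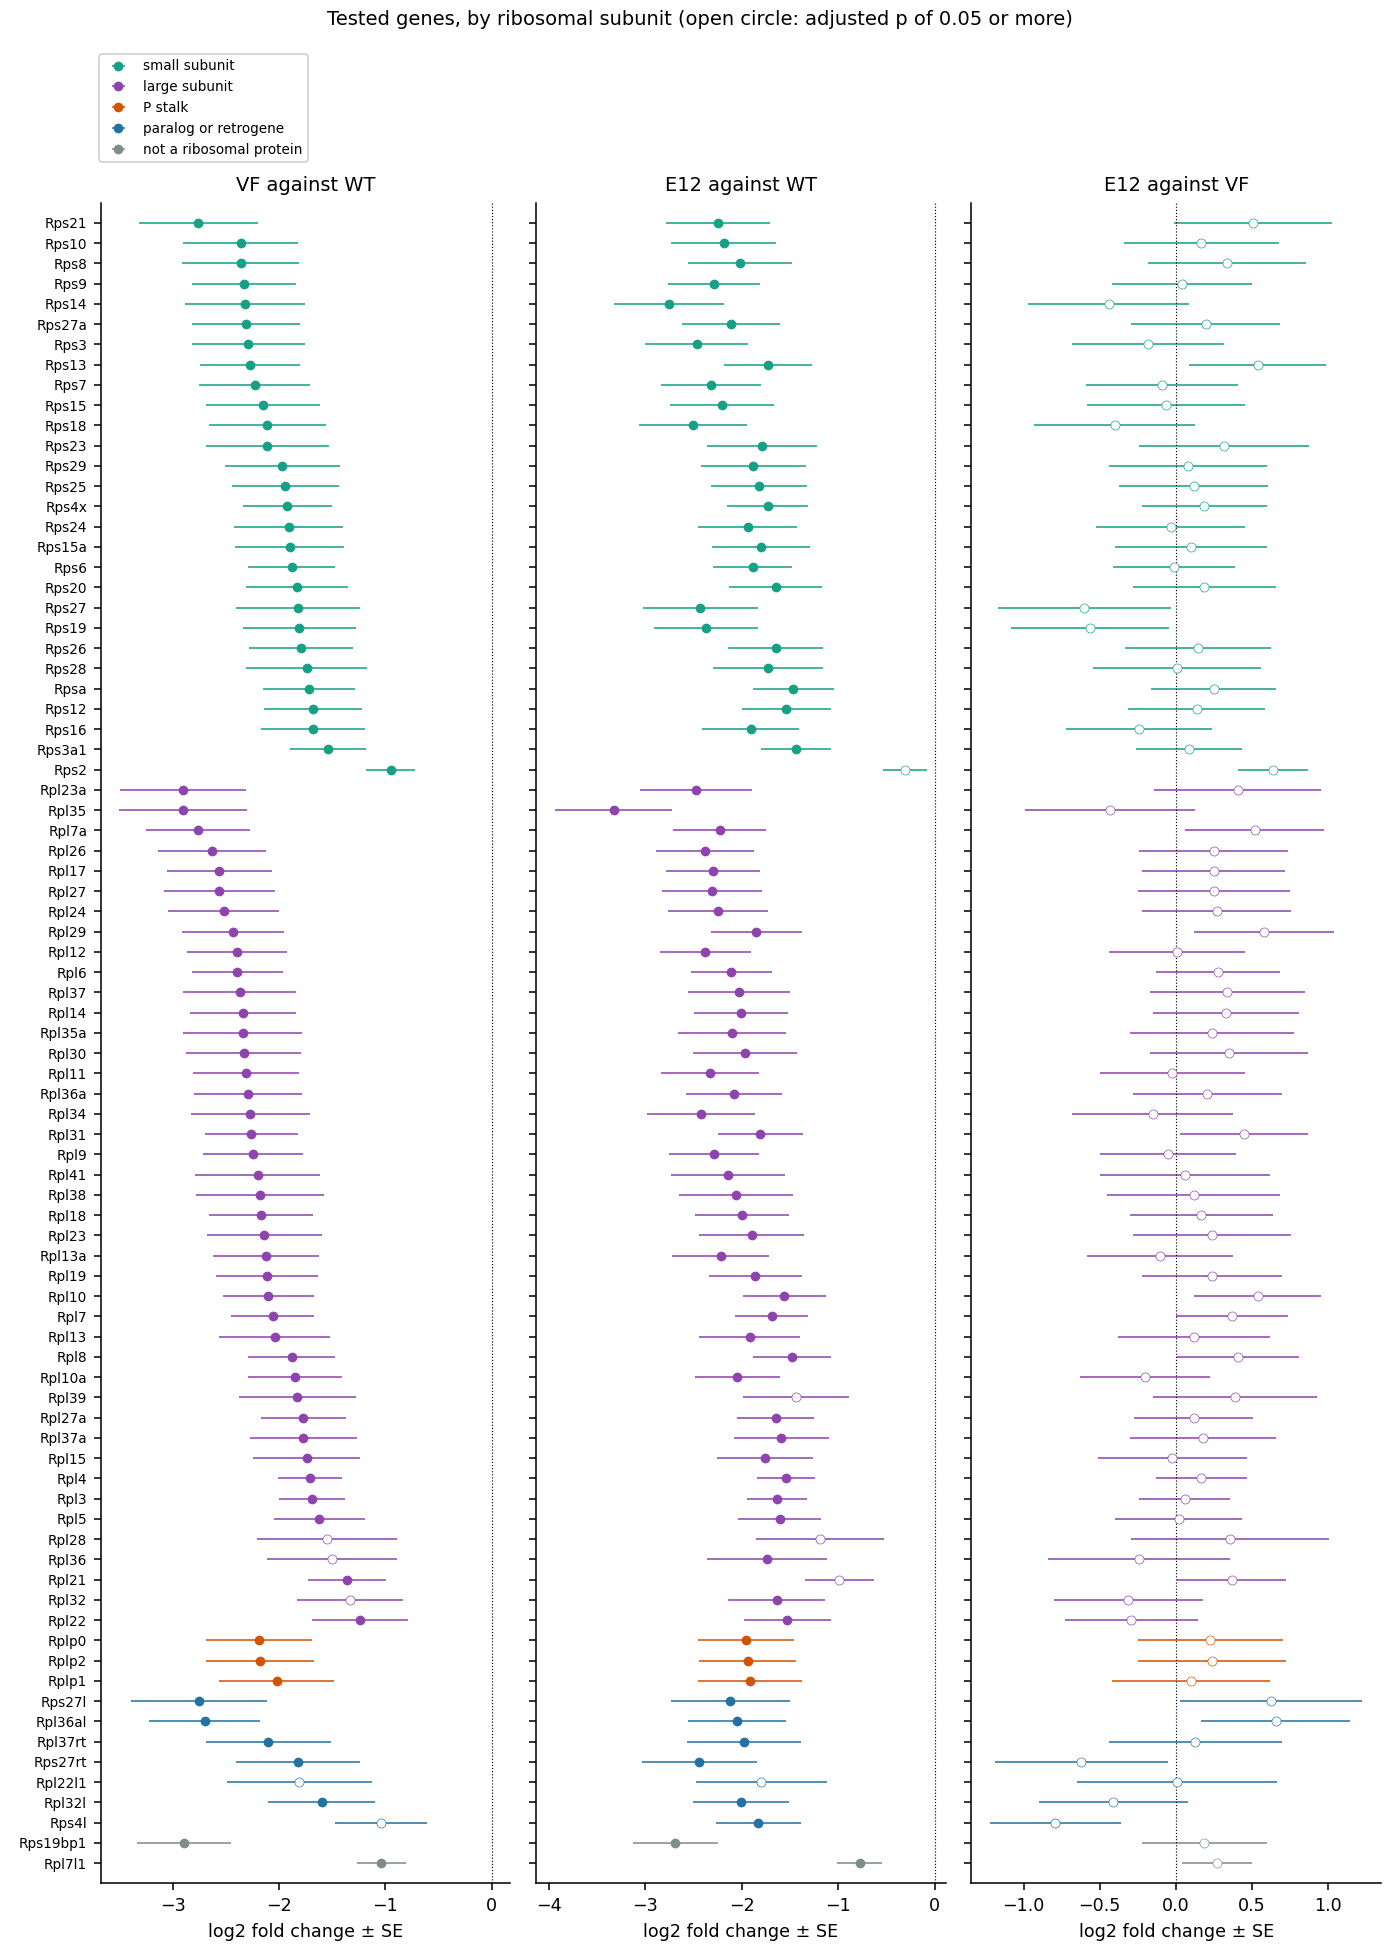
Log2 fold change with its SE for 82 of the 86 tested members in the 3 comparisons, ordered and coloured by role, with open circles where the adjusted p was 0.05 or more. Nearly every point in the comparisons with WT is filled and lies between -3.33 and -0.31, and every point in E12 against VF is open and lies between -0.79 and 0.66.

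Between the mutants the family's median was near 0, and single members lay on both sides of it. In E12 against VF edgeR called 0 members lower and 0 higher (1.02% and 2.19% of all tested genes); at an unadjusted p under 0.05 it called 0 lower and 1 higher, Rps2, which was also the 1 member that DESeq2 called higher after adjustment (6.14% of genes lower, 6.32% higher), while limma-voom called 0 (3.77% and 3.02%). The median log2 fold change was 0.16, against -0.05 for genes of similar length and for all genes, and 67 of 86 members lay above their similar genes (median difference 0.21). With the level matched too the difference was 0.01, and on the deposited levels the members' median was -0.003, with 1 member, Rps19, lower (limma; 5.96% of genes lower, 7.15% higher). The fit on 9 libraries shares 1 estimate of the spread, and the coefficient of variation of a member's CPM had a median of 9.29% in VF, 11.4% in E12 and 81% in WT. A fit of the 6 VF and E12 libraries alone called 21 members higher and 7 lower in E12, where 25.4% of its tested genes were higher and 22.6% lower. Without WT 50, the fit on the other 8 libraries called 5 members higher, namely Rpl36al, Rps2, Rpl29, Rps27l and Rpl31, and 0 lower (12.8% and 10.7% of genes). Libraries did not overlap for 26 higher and 9 lower members (28.2% and 31.3% of all genes). In this count and in the fit of 6 libraries the members' share of higher genes was near that of all genes and their share of lower genes below it. Without WT 50, with DESeq2 and on the deposited levels, the share of members called higher was below that of all genes.

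The genes named next were called in that fit of 6 libraries, and they are named with its values in view. Rpl36al, the autosomal relative of the X-linked large subunit gene Rpl36a (chr12:69182734-69184067), had 77.9, 78.6 and 70.0 CPM in VF and 124, 110 and 122 in E12. The groups did not overlap; the log2 fold change was 0.69 ± 0.09 (edgeR adjusted p = 0.0004) in the fit of 6 libraries and 0.66 ± 0.49 (adjusted p = 0.54) in the fit of 9. Rps2 had 171, 153 and 143 CPM in VF and 265, 194 and 268 in E12, again with no overlap (6 libraries 0.67 ± 0.13, edgeR adjusted p = 0.0039; 9 libraries 0.64 ± 0.23, 0.19). Rpl10, which joins the large subunit in its last steps of assembly (chrX:74270816-74273135), had 294, 270 and 243 CPM in VF and 387, 356 and 427 in E12 (6 libraries 0.57 ± 0.11, edgeR adjusted p = 0.0032; 9 libraries 0.54 ± 0.42, 0.56). These 3 were higher in E12 in every library. Without WT 50 the fit of the other 8 libraries gave adjusted p = 0.015 for Rpl36al and 0.018 for Rps2 (edgeR).

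The lower side held small subunit proteins for the most part. Rps19 was 386, 411 and 335 CPM in VF and 291, 225 and 250 in E12 (6 libraries -0.53 ± 0.11, edgeR adjusted p = 0.005; 9 libraries -0.56 ± 0.52, 0.64). Rps14 was lower by a like amount (6 libraries -0.41 ± 0.11, edgeR adjusted p = 0.017; 9 libraries -0.44, 0.73). Rps27, a zinc finger protein of the small subunit (chr3:90212667-90213648), had 165, 169 and 130 CPM in VF and 110, 87.5 and 108 in E12 (6 libraries -0.57 ± 0.12, edgeR adjusted p = 0.0059; 9 libraries -0.60 ± 0.57, 0.64). None of the 3 genes had overlapping groups. Rps27rt, Rpl35 and Rps18 were also lower in the fit of 6 libraries, at -0.59 to -0.37. With length offsets 11 members were higher in E12 and 0 lower (7.94% and 2.92% of all genes); all 11 were also higher in the fit of 6 libraries, and they include Rpl36al, Rps27l and Rpl10. Rps6, the substrate of the S6 kinases, was among the members with values nearest 0: 312, 325 and 262 CPM in VF, 332, 286 and 277 in E12, a log2 fold change of -0.01 ± 0.40 (edgeR adjusted p = 1.0).

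**Figure D4:**
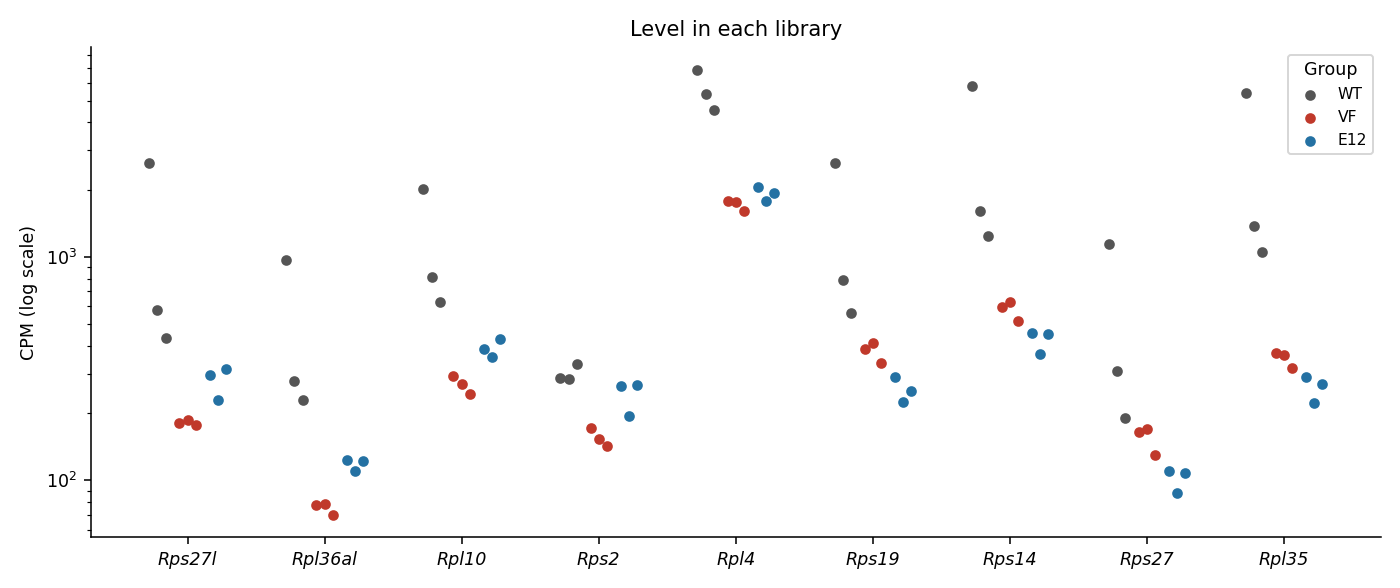
CPM in each of the 9 libraries (log axis) for Rps27l, Rpl36al, Rpl10, Rps2, Rpl4, Rps19, Rps14, Rps27 and Rpl35, with 1 point a library, grouped as VF, E12 and WT. WT points lie above both mutant groups for every gene, with WT 50 apart for most; between the mutants the first 4 genes are higher in E12 and Rps19, Rps14, Rps27 and Rpl35 are lower.

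Paralogs give ratios within a library that do not depend on its size, though they can differ with gene length where the 2 genes are not equally long. Rps27 and the retrogene Rps27rt (chr9:114982366-114982739) had nearly equal counts in every library, for instance 4399 and 4336 in VF 1, with ratios of 1.01 to 1.03. Of the 50-base words of Rps27, 98.6% occur in Rps27rt, and 91.1% the other way. Their start windows, shown because they share a stretch of 38 bases, carry it in capitals as far as it lies within 30 bases after the start.
Rps27: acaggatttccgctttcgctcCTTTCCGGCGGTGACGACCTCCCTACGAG
Rps27rt: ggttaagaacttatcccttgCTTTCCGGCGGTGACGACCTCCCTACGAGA
They lie at chr3:90213619-90213668 and chr9:114982710-114982759, both on the minus strand. From these data, reads of the 2 genes cannot be told apart, and Rps27rt adds no independent value. Its changes were those of Rps27: both fell by 1.82 on the log2 scale in VF against WT, calls that ended without any 1 of the VF libraries (edgeR adjusted p = 0.075, 0.073 and 0.095 for Rps27) and that were -0.85 for Rps27 without WT 50.

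Rps27l, a paralog of Rps27 that p53 can switch on (chr9:66944624-66949522), went the other way from its parent between the mutants. It had 180, 186 and 177 CPM in VF, 297, 230 and 315 in E12 and 2640, 581 and 433 in WT. The 3 groups did not overlap; it was lower than WT in VF (-2.75 ± 0.64, edgeR adjusted p = 0.0075; -1.63 without WT 50) and in E12 (-2.12 ± 0.62, adjusted p = 0.024). The E12 call ended without any 1 of the E12 libraries (edgeR adjusted p = 0.07, 0.087 and 0.065 without E12 1, 2 and 5), and it was -1.0 without WT 50. The ratio of Rps27l to Rps27 counts was 1.09, 1.1 and 1.36 in VF, 2.69, 2.63 and 2.93 in E12 and 2.31, 1.88 and 2.26 in WT, with geometric means of 1.18, 2.75 and 2.14. No group overlapped another. Each of the 3 contrasts had an exact two-sided permutation p of 0.1, the smallest that 3 against 3 libraries allow, and 0.16 when adjusted over the 24 tests of 8 pairs. E12 exceeded VF by 1.22 on the log2 scale of the ratio. In the fit of 6 libraries Rps27l was higher in E12 by 0.67 ± 0.12 (edgeR adjusted p = 0.0024) and in that of 9 by 0.63 ± 0.60 (0.65; adjusted p = 0.04 without WT 50).

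Rpl36al over Rpl36a was 1.39, 1.53 and 1.62 in VF, 2.09, 2.09 and 1.96 in E12 and 2.0, 1.97 and 1.99 in WT. VF lay below both other groups without overlap (exact permutation p = 0.1, the smallest possible). Rpl7l1, the Rpl7-like protein, had 229, 238 and 226 CPM in VF, 302, 264 and 268 in E12 and 529, 505 and 394 in WT. It was lower by 1.04 ± 0.23 in VF (edgeR adjusted p = 0.0059) and by 0.78 ± 0.23 in E12 (adjusted p = 0.024). The E12 call ended without any 1 of the VF or E12 libraries (edgeR adjusted p from 0.053 to 0.09), and without WT 52 it was -1.18. Its WT libraries lay closer together than those of its parent, and its ratio to Rpl7 was 0.414, 0.904 and 0.844 in WT 50, 51 and 52, below every VF and E12 library (lowest 1.2 in VF and 1.11 in E12). The GENCODE transcripts have 2606 bases for Rpl7l1 and 1163 for Rpl7, and the part of length in this ratio was not tested. Rps19bp1 had 40, 40.4 and 34 CPM in VF, 49.6, 40.3 and 41.1 in E12 and 501, 201 and 145 in WT. It fell by 2.89 ± 0.44 in VF (edgeR adjusted p = 0.0013) and by 2.69 ± 0.44 in E12 (adjusted p = 0.0029), among the largest changes of all matches.

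Rpl22 and its paralog Rpl22l1 differed in how far a single library carried them. Rpl22l1 had 453 CPM in WT 50 and 80.8 and 55.8 in WT 51 and 52, beside VF libraries at 50.3 to 66.2 and E12 libraries at 52.6 to 61.1, so that WT 52 lay within both mutant groups. Rpl22 had 496, 166 and 140 CPM in WT and 82.4 to 124 in the mutants. It fell by 1.24 in VF (edgeR adjusted p = 0.045), a call that ended without any 1 of the VF or E12 libraries (adjusted p from 0.067 to 0.13), and by 1.53 in E12 (adjusted p = 0.024; from 0.063 to 0.085 without 1 E12 library). Without WT 50 the values of Rpl22 were -0.57 and -0.86, and those of Rpl22l1 -0.44 and -0.43. Rps4l, a paralog of the X-linked Rps4x, was at 7.19 to 10.3 CPM in VF, 3.47 to 7.14 in E12 and 12.3 to 27.1 in WT. It fell in E12 (-1.83, edgeR adjusted p = 0.011) and had -1.04 in VF (0.071).

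To see where single members stood within the family, the fit was repeated with the sum of the members' counts as the library size, so that a change is relative to the family. In VF against WT 6 members were lower within the family, among them Rps19bp1 (-0.84), Rpl35 (-0.67), Rpl23a (-0.66), Rpl7a (-0.65) and Rpl36al (-0.54), and 4 were higher, among them Rpl22 (0.85), Rpl32 (0.79) and Rpl36 (0.79). On this scale 2.78% of all genes were lower and 53.7% higher (edgeR, adjusted p under 0.05). In E12 against WT 4 were lower, namely Rpl35 (-1.19, edgeR adjusted p = 0.0027), Rps19bp1 (-0.73), Rps14 (-0.66) and Rps3 (-0.44), and Rps2 was higher (1.21, adjusted p = 0.049), against 1.2% and 48.9% of all genes. On this scale Rpl35 and Rps19bp1 stood below the family in both comparisons, which share the WT libraries. With the members' median from the usual fit taken off instead, 0 members were called lower in either comparison (1.31% and 0.257% of all genes). With the members' sum, 0 members were called in E12 against VF in either direction (0.485% and 0.647% of all genes). The counts with the members' sum moved with single libraries. Without WT 50 they were 10 lower and 20 higher in VF against WT, 19 higher in E12 against WT, and 8 lower and 3 higher in E12 against VF. Over all single omissions the lower count in VF against WT ran from 0 to 10. Shares of all genes are not given for these omissions, so the counts show only how far they moved.

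Proteins of the ribosome that carry other symbols followed the members. Fau, which encodes Rps30 fused to a ubiquitin-like protein, and Rack1, a scaffold on the small subunit, were lower in both comparisons with WT. Rack1 had 688, 729 and 628 CPM in VF, 1130, 859 and 958 in E12 and 5310, 2250 and 2120 in WT (log2 fold changes -2.24 and -1.71). Fau changed by -2.29 in VF (-1.45 without WT 50) and by -2.30 in E12 (-1.45). Mitochondrial ribosomal proteins, whose ribosomes translate the mitochondrial genome, were lower in 74 of 78 in VF against WT (median -2.6) and in 69 of 78 in E12 against WT (median -2.13); 1, Mrps30, was higher in both. In E12 against VF 2 of the 78, Mrpl9 and Mrps5, were higher, calls that ended without any 1 of the mutant libraries (edgeR adjusted p from 0.11 to 0.25). The median was 0.40, and the fit of 6 libraries called 55 higher and 2 lower (25.4% and 22.6% of the genes it tested). In the fit of 9 libraries, 20.9% of all tested genes were lower in VF against WT and 18.1% in E12 against WT. Between the mutants 2.19% were higher in E12.

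Ribosome assembly factors of the nucleolus were lower in part against WT, and between the mutants their values lay on the side of E12. Of 64, 36 were lower and 1 higher in VF against WT (median -1.18), and 26 were lower and 9 higher in E12 against WT (median -0.43). With length offsets 58 were lower and 2 higher in VF (median -1.31), and 27 lower and 3 higher in E12 (median -0.56); Nat10 and Heatr1, higher in E12 without offsets, then had -0.25 and -0.47. Rrs1, a large subunit assembly factor, was the 1 that rose in VF and it rose in E12 too (1.39 and 2.10). In E12 against VF all 64 had values above 0, with a median of 0.63; 4 passed the test in the fit of 9 libraries (Pno1, Rrp12, Nat10 and Heatr1), 43 without WT 50, 19 with DESeq2, 23 with length offsets and 61 in the fit of 6 libraries, where 2.19%, 12.8%, 6.32%, 7.94% and 25.4% of all genes were higher. Each of these 4 calls ended without any 1 of the VF or E12 libraries (edgeR adjusted p from 0.086 to 0.22). Pno1, needed for small subunit maturation, had 68.2, 64.2 and 61.5 CPM in VF, 152, 142 and 146 in E12 and 177, 244 and 196 in WT. E12 lay above VF without overlap (1.18 ± 0.21, edgeR adjusted p = 0.024). Rrp12, an export factor of both subunits, had 39.0, 44.9 and 44.3 CPM in VF, 104, 109 and 90.5 in E12 and 31.7, 46.5 and 33.5 in WT. It was higher in E12 than in VF by 1.24 ± 0.23 (edgeR adjusted p = 0.025), while VF and WT overlapped.

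The precursor row Rn45s, the transcript from which most ribosomal RNA is cut, had 9520, 9630 and 7240 CPM in VF, 19600, 19100 and 21000 in E12 and 6060, 7740 and 6750 in WT. E12 was above both other groups in every library and higher than WT by 1.54 (edgeR adjusted p = 0.0087; 0.053 without WT 51); its value against VF was 1.18 (adjusted p = 0.11; 0.0017 without WT 50). Libraries primed on poly(A) tails capture such RNA only in part. Of 15 genes of RNA polymerase I and its factors, 7 were lower and 0 higher in VF against WT (median -0.29), 4 lower and 2 higher in E12 against WT (-0.37) and 0 were called in E12 against VF (median 0.53; edgeR on 6 libraries called 10 higher and DESeq2 5). Of 17 other TOP messages, among them translation factors such as Eef1d, 12 were lower and 1, Vim, higher in VF against WT (median -1.19) and 10 lower in E12 against WT (median -0.91). Of 12 chaperones and importins of ribosomal proteins, 3 were lower (Bccip, Tsr2 and Grwd1) and 2 higher (Ipo9 and Ipo7) in VF, and 3 lower (Bccip, Tsr2 and Aamp) and 4 higher (Ipo9, Ipo7, Heatr3 and Tnpo1) in E12. Bccip, a chaperone of Rpl23, had -2.80 in VF and -2.27 in E12. Of 14 regulators of TOP messages, Eif4ebp1 and Rheb were lower and Mycn and Larp4 higher in both mutants, Rptor and Tsc2 were higher in E12, and Mycn was lower in E12 than in VF. Larp4, which binds poly(A) tails, rose by 1.95 in VF and 2.38 in E12. Of 11 ribosome rescue factors, Nemf was lower and Abce1, Ltn1 and Gtpbp2 higher in VF, and Abce1, Ltn1, Rnf10 and Ascc3 were higher in E12; genes named from these small counts were chosen after their values had been seen. Abce1, which splits ribosomes after termination, had 204 to 232 CPM in VF, 403 to 420 in E12 and 71.3 to 103 in WT, higher by 1.33 and 2.23 (0.16 and 1.11 with length offsets). Among genes of 3000 bases or more, 41.3% were higher in VF and 37.9% in E12. With length offsets 0 of the 11 rescue factors were higher and 5 lower in VF, and 1 was higher and 1 lower in E12. Of the chaperones and importins, 8 were then lower and 1 higher in VF, and 6 lower and 2 higher in E12. Of the TOP regulators, 7 were lower and 2 higher in VF, and 6 lower and 4 higher in E12.

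**Figure D5:**
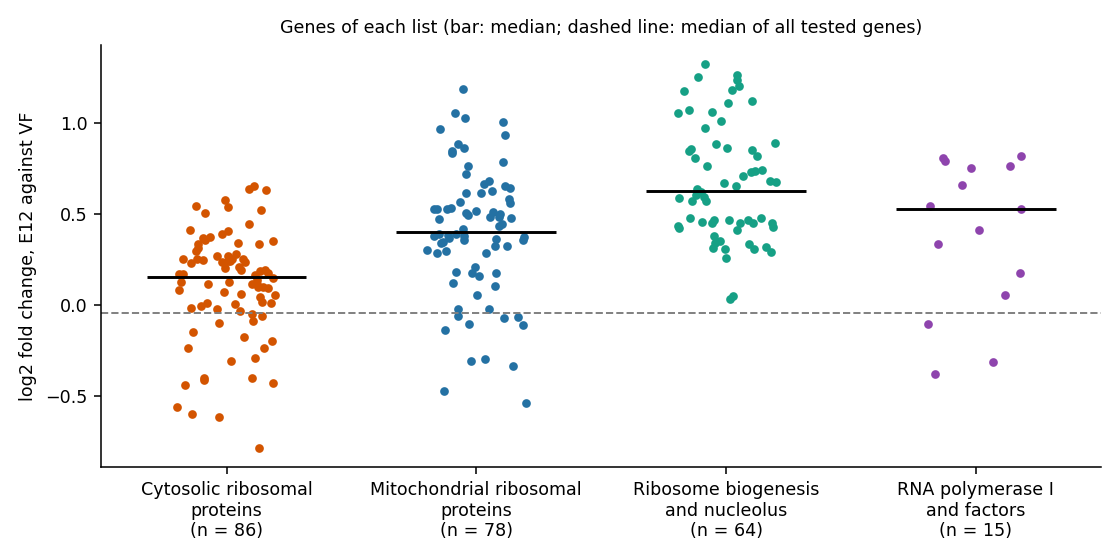
Log2 fold changes in E12 against VF for the ribosomal protein genes, mitochondrial ribosomal proteins, assembly factors of the nucleolus and RNA polymerase I with its factors. Each gene is 1 point, with a bar at the list's median and a dashed line at the median of all tested genes. The members' median is 0.16 and that of the assembly factors 0.63, with every assembly factor above 0.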

How the data were processed

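Bone marrow cells labelled MEP were sorted by flow cytometry, RNA was extracted with PicoPure and libraries were made with Smart-Seq2, per the labels, a method with no molecular identifiers and no strand. The deposited counts are whole numbers per gene; the submitters' processing notes name STAR, limma and the builds GRCm38 and mm10, and no counting tool is given in the sources used here. Log2 expression levels were deposited too and served as an alternative. The 8 rows without a symbol held 0.00709% of counts.

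Counts were tested with edgeR 4.0.16 (R 4.3.3): filterByExpr kept 13608 genes, libraries were scaled by TMM, all 9 entered 1 quasi-likelihood fit with the group as its term, and two-sided p-values were adjusted over these genes (Benjamini-Hochberg). DESeq2 1.42.0, limma 3.58.1, other scalings and filters, fits of 2 groups and single omissions were alternatives. With offsets, a loess of change on length (span 0.3) was removed. With 3 against 3 libraries, an exact permutation test cannot go below 0.1. Members, gene lists and tests were chosen with earlier results of these data known. Named members are those with the highest levels, the largest and smallest changes, the paralogs with their parents, the P stalk, anemia genes, and those that moved most within the family; some genes this rule covers are not reported here, though the counts and medians hold them. On simulated counts the fit found 0% of 2-fold, 27.1% of 4-fold and 61.2% of 8-fold changes in the comparison of VF with WT, 0%, 16% and 73.5% for E12 with WT, and 4.1%, 30% and 72% between the mutants. The simulations changed 50 genes at each fold size, while in the data 6612 genes were called in VF against WT and 437 between the mutants. Adjustment is stricter where few genes change. Each simulated gene also had 1 spread for all groups, while the members' CPM had a median coefficient of variation of 9.29% in VF, 11.4% in E12 and 81% in WT. For both reasons these shares need not hold for the data. They do not tell why members were not called between the mutants.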

Additional observations from a re-analysis of the deposited data

How the results depend on the processing

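Against WT, the direction of the members' median held in every alternative run. Counts of lower members in VF against WT were 52 with length offsets and 47 on the deposited levels, and of higher ones 1 with length offsets. In E12 against WT 42 were lower in the fit of 2 groups, 0 in that fit without E12 5 and 25 with length offsets, which also gave 1 higher. In E12 against VF, 21 were higher and 7 lower in the fit of 2 groups, 20 and 10 in that fit without E12 5, 11 higher with length offsets, 3 higher without WT 50 and E12 5, 1 higher with DESeq2 and 1 lower on the deposited levels, where the median turned to -0.003. In the fit of 2 groups without E12 5, 24.7% of all genes were higher and 25.3% lower. Without WT 50 and E12 5 these shares were 11.3% and 7.1%. Leaving out 1 library gave 56 to 87 lower and 0 to 0 higher in VF against WT, 32 to 85 and 0 to 1 in E12 against WT, and 0 to 0 lower and 0 to 5 higher in E12 against VF. Apart from WT 50, shares of all genes are not given for these omissions, so the ranges show only how far the counts moved. Fits without WT 50 or E12 5 beyond single omissions were chosen after the data had been seen.

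The difference from genes of similar length in VF against WT was -1.03 with no filter, 0.495 on the deposited levels and 0.142 with the level matched; in E12 against WT it was -0.703, 0.43 and 0.159, and in E12 against VF 0.008 on the deposited levels and 0.013 with the level matched. Single omissions gave -0.458 to -0.359, -0.262 to -0.167 and 0.188 to 0.244. Shares of counts ran from 2.10 to 2.24% in VF, 1.99 to 2.12% in E12 and 3.55 to 4.99% in WT, and were 6.01%, 5.75% and 7.17% within genes under 2 kb. The SD of levels ran from 1.72 to 1.74, 1.68 to 1.71 and 1.80 to 1.86, and without division by length it was 1.77 in VF and 1.74 in E12. Within the family, single omissions gave 0 to 10 lower and 2 to 20 higher in VF against WT, 2 to 5 and 0 to 19 in E12 against WT, and 0 to 8 and 0 to 3 in E12 against VF, with no shares of all genes beside them. Taking the members' median from the usual fit gave 0 lower in VF against WT (1.31% of all genes), and 0 lower and 3 higher in E12 against WT (0.257% and 70.1%).

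With length offsets the sign turned for Rps28 (0.06, 0.17), Rps19 (VF 0.03), Rps2 (VF 0.10), Rps27 (VF 0.10), Rpl39 (VF 0.01), Rpl10 (E12 0.22), Rpl32 (E12 0.25), Rplp1 (E12 0.03), Rps26 (E12 0.24), Rps27l (E12 0.01), Rpl29 (E12 0.07), Rpl36 (E12 0.31), Mrps5 (E12 0.20), Nat10 (E12 -0.25) and Heatr1 (E12 -0.47), all against WT, and on the deposited levels for Rpl7l1 (0.17, 0.19). The cause was not tested. Over all named genes and settings, 3579 values kept direction and side of the threshold, 301 lost and 149 gained a call, and 18 turned; an uncalled gene that changed sign counts among the first.

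VF and E12 share the replicate numbers 1 and 2, and the labels do not say that a number marks a shared animal or batch. With these numbers as a block, E12 against VF had 0 calls among the members and a median of 0.157, and Pno1, Rrp12, Nat10, Heatr1, Mrpl9 and Mrps5 no longer passed (edgeR adjusted p from 0.18 to 0.24). Few genes of any kind passed in that fit: 0.00735% of all tested genes were lower and 0.154% higher. The lost calls are thus not particular to these genes. Deviations of same-numbered libraries correlated at 0.03 and 0.12.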
